A study of Mus musculus with 6 samples.

Results

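Small RNA host genes and named long noncoding RNAs (lncRNAs) were followed by RNA-seq in activated B cells without the RNA-binding protein hnRNPL. The genes were taken by name alone. They are every *Snhg* gene with a number, every microRNA host gene (a symbol that starts with *Mir* and ends with *hg*), and a set of single lncRNAs such as *Gas5*, *Malat1*, *Kcnq1ot1* and *Pvt1*. This gave 48 entries under 46 names among the 55421 genes of the table, since *Rmrp* and *Snhg4* are each listed under 2 identifiers. By role, 20 entries were snoRNA hosts, 14 were miRNA hosts, 5 were nuclear lncRNAs, 4 were imprinted lncRNAs, 2 were lncRNAs of the X inactivation centre and 3 were RNAs of RNase P or RNase MRP. Of the 48, 34 reached a mean of 10 normalized counts over the 6 libraries and were tested, 7 had reads but stayed under that level, and 7 were at 0 in every library.

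Resting splenic B cells had been stimulated ex vivo for 24 h with lipopolysaccharide (LPS, 5 μg/ml) and interleukin 4 (IL-4, 5 ng/ml), which makes normal B cells grow, divide and switch antibody class. The study reports that hnRNPL-deficient B cells stayed smaller, divided less and switched less after this stimulus. It also reports lower MYC and E2F gene signatures in these RNA-seq data. The part of such differences in activation in the results below was not tested. The 3 mice called WT carried CD21-cre alone, and the 3 hnRNPL-deficient mice carried CD21-cre together with hnRNPL F/F, in which both copies of the gene can be cut by Cre. By the study's methods all of them also had the Rosa mT/mG reporter on a C57BL6/J background, both sexes older than 6 weeks were used, and GFP+ cells, those in which Cre had acted, were sorted for RNA. CD21-cre is active mainly in mature B cells, although the study's text names deletion in other tissues of such mice. The RNA was selected for poly(A) tails, so the host values are of long transcripts, spliced or not, and not of mature snoRNAs or miRNAs. Each mouse gave 1 library.

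The libraries held between 40395186 and 75180749 reads on genes. *Hnrnpl* itself had 24371, 25579.7 and 24174 normalized counts in WT libraries 1 to 3 and 2178, 1519 and 1297 in hnRNPL-deficient libraries 1 to 3, as the labels say. The B cell markers *Cd79a*, *Cd79b*, *Ms4a1*, *Pax5* and *Cr2* were present in every library, and the lowest value among them was 3382 normalized counts. Of these 1 was called, *Cr2*, which was higher (log2 fold change 0.85, adjusted p = 0.0444 from limma). *Ms4a1*, with 66279, 55314 and 52501 in WT and 49992, 38987 and 43406 in hnRNPL-deficient libraries, was lower without overlap and past the adjusted p, but not by 1.5-fold (log2 fold change -0.40, adjusted p = 0.0988 from limma). The sums of other cell types' lists are given because some moved with genotype. The 6 T cell markers summed to between 19.7 and 27.7 in WT and between 28.3 and 38.4 in hnRNPL-deficient libraries, with *Cd3e* and *Cd4* at or near 0. The 6 myeloid markers summed to at most 331 in WT and to between 1239 and 1382 in hnRNPL-deficient libraries, nearly all of it *Adgre1* (log2 fold change 2.24, standard error 0.148, adjusted p = 1.39e-04 from limma), while *S100a8* and *S100a9* were at 0 *Lyz2* and *Csf1r* were at or under 6.85, and *Itgam* was at or under 18.6. The 6 erythroid markers summed to at most 38.3 in WT and to between 55.0 and 84.8 in hnRNPL-deficient libraries, with *Hbb-bt* called higher (log2 fold change 1.82, adjusted p = 0.0235 from limma). The 5 plasma cell markers summed from 33957 to 39571 in WT and from 33296 to 36361 in hnRNPL-deficient libraries, and 1 of them, *Jchain*, was called lower (log2 fold change -2.31, adjusted p = 0.0509 from limma). The 5 stromal and endothelial markers summed from 2644 to 2771 in WT and from 3761 to 4478 in hnRNPL-deficient libraries, of which *Pecam1* made up most, *Cdh5* was called higher (log2 fold change 1.33, adjusted p = 0.00490 from limma), and *Dcn* and *Col3a1* were at 0. Their part in the results below was not tested. In bulk RNA, fewer cells that make a transcript and less of it per cell cannot be told apart.

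The libraries also differed within each group. WT library 3 and hnRNPL-deficient library 2 came from female mice, judged by *Xist* (98507 and 98219 normalized counts, against 2.32 to 7.21 in the other 4), so each group holds 1 female. hnRNPL-deficient library 3 was the shallowest and had 8.92% of its counts on mitochondrial genes, against 5.57 to 7.06% in the other 5. WT library 1 was the lowest of the WT libraries for 27 of the 34 tested members, and hnRNPL-deficient library 3 was the highest of its group for 17 of them. Results that rest on 1 library are marked.

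Small nucleolar RNAs (snoRNAs) guide chemical changes of ribosomal RNA bases and riboses, C/D box snoRNAs for ribose methylation and H/ACA box snoRNAs for pseudouridine. In mammals most of them are not made from genes of their own but are cut out of introns. Their noncoding hosts, the *Snhg* genes, *Gas5* and *Zfas1*, are spliced and, for several of them, then degraded by nonsense-mediated decay, and many begin with the pyrimidine tract that marks genes of the translation machinery. miRNAs, in turn, are cut from the primary transcripts of their hosts by Drosha and Dgcr8 in the nucleus and by Dicer1 in the cytoplasm, and their seed, bases 2 to 8, picks the mRNAs they silence. In B cells, miR-155 and the miR-17 to miR-92a cluster are known for their roles in activation and proliferation, and the miR-15a and miR-16 pair for its loss together with *Dleu2* in B cell leukaemia.

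The mature miRNAs of the hosts that the results turn on are shown as RefSeq gives them on GRCm38, 5′ to 3′, with the seed in capitals. *Mir17hg*, the host of 6 miRNA genes, was called lower in hnRNPL-deficient cells, and 1 arm of each is printed. These 6 arms fall into 4 seed families, and the opposite arms are not shown.
miR-17-5p (chr14:115043684-115043706, plus strand): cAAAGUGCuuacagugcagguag
miR-20a-5p (chr14:115044183-115044205, plus strand): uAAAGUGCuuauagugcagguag
miR-18a-5p (chr14:115043867-115043889, plus strand): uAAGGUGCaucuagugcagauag
miR-19a-3p (chr14:115044048-115044070, plus strand): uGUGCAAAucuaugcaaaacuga
miR-19b-3p (chr14:115044358-115044380, plus strand): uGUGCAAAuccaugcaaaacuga
miR-92a-3p (chr14:115044476-115044496, plus strand): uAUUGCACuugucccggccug
In this set miR-17-5p and miR-20a-5p share AAAGUGC, and miR-19a-3p and miR-19b-3p share GUGCAAA, while miR-18a-5p and miR-92a-3p have seeds of their own. *Mir22hg*, called higher, holds 1 miRNA gene, and *Dleu2* and *Mir155hg* are shown as the tested miRNA hosts with the most normalized counts.
miR-22-3p (chr11:75463772-75463793, plus strand): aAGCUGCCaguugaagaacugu
miR-155-5p (chr16:84714143-84714165, plus strand): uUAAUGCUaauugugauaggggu
miR-15a-5p (chr14:61632075-61632096, minus strand): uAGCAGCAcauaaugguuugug
miR-16-5p (chr14:61631936-61631957, minus strand): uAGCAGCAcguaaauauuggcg
Here miR-15a-5p and miR-16-5p share the seed AGCAGCA. None of these seeds occurs in more than 1 of the hosts printed here.

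The starts of the snoRNA hosts are shown for 4 hosts that were called lower and for *Gas5*, the snoRNA host with the most normalized counts, since a tract of C and T at the start is the feature these genes are known to share. Each window is from RefSeq on GRCm38 and holds 10 bases before the transcript start and 20 from it, with the longest run of pyrimidines that opens with a C near the start in capitals.
Snhg3 (chr4:132353667-132353696, minus strand): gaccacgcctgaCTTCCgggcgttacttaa
Snhg5 (chr9:88522878-88522907, minus strand): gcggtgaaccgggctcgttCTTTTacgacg
Snhg8 (chr3:123508317-123508346, minus strand): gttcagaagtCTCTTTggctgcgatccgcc
Snhg9 (chr17:24719946-24719975, minus strand): aCTTTCCCTCgccgaagccgcgccctacac
Gas5 (chr1:161035156-161035185, plus strand): ccatctcagCCTTTCggagctgtgcggcat
A start with a C and at least 5 further pyrimidines, the C lying within 10 bases of the transcript start and the run read on the transcript's strand, was present for 7 of the 15 tested snoRNA hosts that the promoter table holds (46.7%), against 23.9% of 9785 tested genes. *Snhg8* and *Snhg9* and the second start of *Gas5* were among the 7, and *Snhg3* and *Snhg5*, each with 4 pyrimidines after the C, were not. For a gene with several starts the longest run was taken. The first start of *Gas5*, which is not printed, had only 2 pyrimidines after the C. The E-box CACGTG, which reads the same on both strands, was within 250 bases before or 50 bases after the start of 2 of the 15 (13.3%), *Snhg9* and *Snhg15*, against 12.0% of the tested genes. A match of letters is a description and not a binding site.

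Of the 34 tested members, 9 were called, meaning that they changed by 1.5-fold or more with a p under 0.1 after adjustment over all tested genes by Benjamini-Hochberg. They were 26.5% of the members, against 11.4% of all 17640 tested genes. The 3 called higher (8.82% of the members, against 7.28% of all tested genes) were *Mir22hg*, *Firre* and *Peg13*. The 6 called lower (17.6%, against 4.08%) were *Mir17hg* and the snoRNA hosts *Snhg3*, *Snhg4*, *Snhg5*, *Snhg8* and *Snhg9*. In 9 members every hnRNPL-deficient library lay below every WT library, and in 5 every one lay above, which is 26.5% and 14.7% of the members beside 16.3% and 17.7% of all tested genes. The median log2 fold change of the 34 was -0.12, beside -0.03 over all tested genes and 0.23 over the 1397 other tested lncRNA genes, of which 242 were called higher and 52 lower. The call counts of the members ranged from 1 to 5 higher and from 4 to 7 lower as single libraries were left out. Only 1 was called higher without WT library 2, and 5 were without hnRNPL-deficient library 1. Among the 4 libraries of male mice alone 1 member was called lower, *Snhg5*, and none higher, and all 9 kept their direction.

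**Figure D1:**
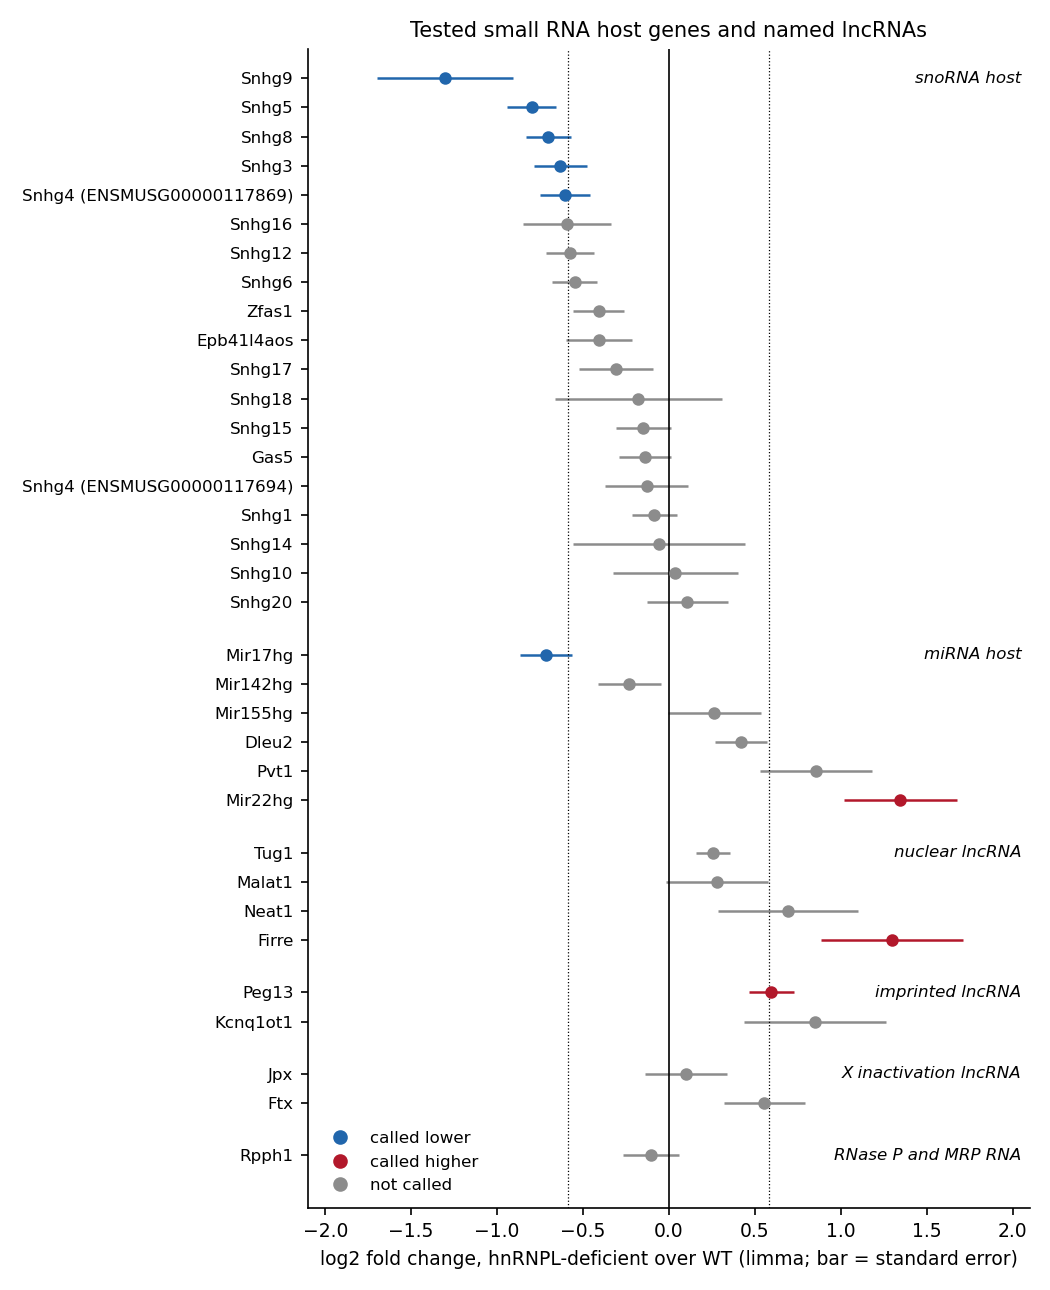
Log2 fold change of hnRNPL-deficient over WT (x axis, points, with the standard error from limma as bars) for the 34 tested members (y axis), grouped by role and ordered within each role; dotted lines mark 1.5-fold, blue is called lower, red called higher and grey not called. Among the snoRNA hosts 17 of 19 points lie left of 0, and all called ones are blue.

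The calls among the snoRNA hosts were all in 1 direction. Of 19 tested, 5 were called lower (26.3%, against 4.08% of all tested genes) and none higher (against 7.28%). A mean log2 value below that of WT was seen in 17, against 9304 of all 17640 tested genes. In 8 the groups did not overlap, all 8 with the hnRNPL-deficient libraries below, beside 16.3% of all tested genes. The median log2 fold change of the 19 was -0.41. Their summed level ran from 27252 to 33076 normalized counts in WT and from 22785 to 26253 in hnRNPL-deficient libraries. All 19 hold at least 1 snoRNA or small Cajal body RNA on their own strand in the GENCODE annotation. Left out in turn, the libraries gave 3 to 6 lower calls and none higher, with the 3 coming without WT library 3, and a median from -0.54 (without WT library 1) to -0.31.

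*Snhg5* (*ENSMUSG00000097195.9*, chr9:88521050-88522929), host of the C/D box snoRNAs Snord50a and Snord50b, had 971, 1229 and 1048 normalized counts in WT libraries 1 to 3 and 601, 692 and 570.2 in hnRNPL-deficient libraries 1 to 3. Every hnRNPL-deficient library lay well below the lowest WT library. The mean was 1083 ± 132 for WT and 621 ± 63.1 for hnRNPL-deficient mice (SD, 3 libraries a group; log2 fold change -0.80, standard error 0.140, adjusted p = 0.00989 from limma). *Snhg8* (chr3:123507552-123508404), host of the H/ACA box Snora24, had 859.9, 789 and 788 in WT and 524, 531 and 445 in hnRNPL-deficient libraries. The groups were again apart, and the spread within each was small (log2 fold change -0.70, standard error 0.132, adjusted p = 0.0131 from limma). These were the 2 snoRNA hosts that kept their call without each library in turn, with log2 fold changes of -0.88 to -0.70 for *Snhg5* and -0.75 to -0.62 for *Snhg8*.

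*Snhg3* (chr4:132348014-132353686), host of Snora73a and Snora73b, was the member with the second highest level per length (2567 normalized counts per kb of exon over all libraries). Its normalized counts were 3693, 2779.7 and 2765 in WT and 2176, 1662 and 2111 in hnRNPL-deficient libraries. WT library 1 stood above the other two WT libraries, and all 3 hnRNPL-deficient libraries were lower than any WT library (log2 fold change -0.63, standard error 0.154, adjusted p = 0.0345 from limma). The call was lost without WT library 1, at a log2 fold change of -0.49, and without hnRNPL-deficient library 2, at -0.51. *Rcc1*, a coding gene on the same strand that overlaps *Snhg3* in the annotation and could share reads with it, had 5055, 4826 and 4504 normalized counts in WT and 3563, 3594 and 2778 in hnRNPL-deficient libraries (log2 fold change -0.54).

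*Snhg4* is listed under 2 identifiers that overlap on the same strand, so reads may have been divided between them or lost to both, and its values are uncertain. The identifier with nearly all of the counts (*ENSMUSG00000117869*, chr18:35553371-35558316) had 4539, 5204 and 5691 normalized counts in WT and 2820.0, 3402 and 4002 in hnRNPL-deficient libraries. No hnRNPL-deficient library reached the lowest WT value (log2 fold change -0.60, standard error 0.146, adjusted p = 0.0335 from limma), and the call was lost without WT library 3 (log2 fold change -0.53) and without hnRNPL-deficient library 1 (-0.47). The other identifier (*ENSMUSG00000117694*, chr18:35553404-35587708) had 138, 172 and 164 in WT and 113, 137 and 192 in hnRNPL-deficient libraries, with overlapping groups (log2 fold change -0.13, adjusted p = 0.766 from limma).

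*Snhg9* (chr17:24719531-24719965), a short host of the H/ACA box Snora78, had the largest fold among the called members that were lower and the fewest reads, 5 to 35 per library. Its normalized counts were 32.5, 18.2 and 26.8 in WT and 12.6, 10.1 and 6.85 in hnRNPL-deficient libraries. The groups did not overlap (log2 fold change -1.30, standard error 0.396, adjusted p = 0.0700 from limma). Without any 1 library other than hnRNPL-deficient library 1 the adjusted p from limma rose above the threshold, to between 0.103 and 0.197, at log2 fold changes of -1.53 to -1.09. *Rps2*, a ribosomal protein gene on the opposite strand that overlaps it, had a log2 fold change of -0.12.

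*Gas5* and *Snhg1*, the snoRNA hosts with the most normalized counts, were not called. *Gas5* (chr1:161034422-161038539), host of 10 annotated snoRNAs, had 5106, 7799 and 7156 normalized counts in WT and 5867, 6175 and 5887 in hnRNPL-deficient libraries. WT library 1 was below all 3 hnRNPL-deficient libraries and the other 2 WT libraries were above them (log2 fold change -0.14, standard error 0.153, adjusted p = 0.592 from limma). *Snhg1* (chr19:8723475-8726443), host of 8, had 4409, 4668 and 5024 in WT and 4127, 3928 and 5354 in hnRNPL-deficient libraries, where library 3 exceeded every WT library (log2 fold change -0.08, standard error 0.132, adjusted p = 0.716 from limma). *Zfas1*, host of Snord12, had a log2 fold change of -0.41 (adjusted p = 0.115 from limma) and groups that did not overlap, with 1874, 2691 and 2596 normalized counts in WT and 1693, 1787 and 1846 in hnRNPL-deficient libraries. A p above the threshold does not show that a gene did not differ.

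*Snhg6* and *Snhg12* passed the adjusted p but not 1.5-fold. *Snhg6*, host of Snord87, had a log2 fold change of -0.55 (adjusted p = 0.0319 from limma), and *Snhg12*, host of Snora16a, Snora44, Snora61 and Snord99, had one of -0.58 (adjusted p = 0.0349 from limma). Both lay just short of the fold limit. *Snhg6* was called when WT library 1 (-0.61) was dropped, or when library 1 (-0.59) or 2 (-0.60) of the hnRNPL-deficient mice was, and *Snhg12* without WT library 1 (-0.68) or hnRNPL-deficient library 2 (-0.62). *Snhg16*, host of 3 annotated snoRNAs, had a larger fold than either but a wider spread (log2 fold change -0.59, adjusted p = 0.178 from limma), and was called only without WT library 1 (-0.84) among the libraries left out. *Epb41l4aos* (log2 fold change -0.41, adjusted p = 0.217 from limma) and *Snhg17* (log2 fold change -0.31, adjusted p = 0.397 from limma) were lower on average, *Snhg15* (-0.15), *Snhg18* (-0.18) and *Snhg14* (-0.06) were close to WT, and *Snhg20* (0.11) and *Snhg10* (0.04) were the 2 with a mean above WT. *Snhg14*, the long host of 208 annotated snoRNAs in the imprinted *Ube3a* region, had only 10 to 22 reads per library.

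**Figure D2:**
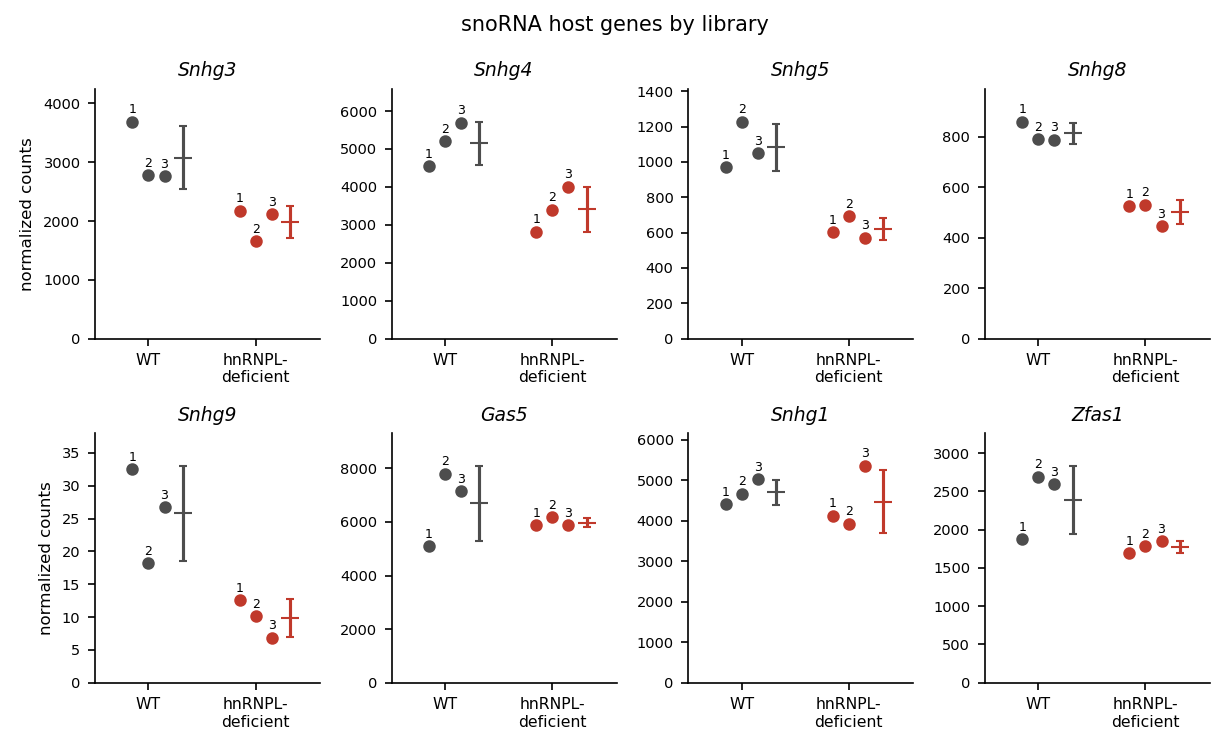
Normalized counts (y axis, each from 0) of 8 snoRNA hosts in the 3 WT (grey) and 3 hnRNPL-deficient (red) libraries, numbered by replicate, with the mean and SD of each group to the right of its points. In *Snhg3*, *Snhg4* (ENSMUSG00000117869), *Snhg5*, *Snhg8* and *Snhg9* the red points lie below all grey points, and in *Gas5* and *Snhg1* the groups overlap.

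The snoRNAs themselves can be read only in part. The table lists 292 small RNA genes within members, and 8 of them reached the filter; none was called, and in none did the groups separate, although 7 of the 8 had a mean log2 value under that of WT. Snora73b in *Snhg3* had 2406, 4924 and 3612 normalized counts in WT and 3464, 3660.0 and 1922 in hnRNPL-deficient libraries (log2 fold change -0.27, adjusted p = 0.60 from limma), which overlap. Snora78 in *Snhg9* had 364, 958 and 748 against 798, 908 and 329 (log2 fold change -0.04), and these overlap as well. Snord87 in *Snhg6* had the largest difference, 193, 271 and 271 against 115, 114 and 203 (log2 fold change -0.80, adjusted p = 0.10 from limma), just outside the threshold. snoRNAs lack poly(A) tails. The 10 of *Gas5* and the 8 of *Snhg1* were at 0 in every library. These lie inside annotated exons of their hosts on the same strand, so a read there may belong to both. Their 0 therefore says nothing of their level. The host counts may lack such shared reads too, as in *Gas5*, *Snhg1*, *Snhg5*, *Snhg8* and *Mir17hg*. The annotated exons of *Snhg1*, *Zfas1*, *Snhg8* and *Snhg12* each form 1 unbroken block, so reads of unspliced RNA also count for these hosts.

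The proteins that snoRNAs work with held 1 called gene in each of 2 lists. All 8 genes of the snoRNP core had a mean log2 value below that of WT, against 9304 of all 17640 tested genes. The median log2 fold change was -0.32, and 1 of the 8 (12.5%, against 4.08% of all tested genes) was called lower. That gene, *Nhp2*, a core protein of H/ACA particles, had 3514, 4117 and 3639 normalized counts in WT and 2035, 2402 and 1545 in hnRNPL-deficient libraries (log2 fold change -0.93, standard error 0.161, adjusted p = 0.00931 from limma), groups far apart. *Nop58* and *Nop56*, C/D box core proteins with the most counts of the list, had log2 fold changes of -0.28 and -0.36 and were not called. Of 12 tested assembly factors, all 12 lay below WT (median -0.30). In 11 the hnRNPL-deficient libraries lay below WT without overlap, beside 16.3% of all tested genes. Among the 12, 1 was called lower (8.33%, against 4.08% of all tested genes). This was *Pih1d1*, a subunit of the R2TP chaperone complex, with 512, 688 and 621 in WT and 328, 419 and 314 in hnRNPL-deficient libraries (log2 fold change -0.78, standard error 0.176, adjusted p = 0.0266 from limma). Without WT library 2 none of the 12 was called. *Nolc1* and *Ruvbl2*, those with the most counts, had log2 fold changes of -0.58 and -0.27. The lists and the hosts share all 6 libraries, so they are not independent of each other.

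The coding hosts of snoRNAs were called at smaller shares than all tested genes. Of 224 tested protein-coding genes with an annotated snoRNA on their strand, 3 were called lower (1.34%, against 4.08% of all tested genes). Called higher were 10 (4.46%, against 7.28%). The median log2 fold change of the 224 was -0.10, and their difference from the noncoding hosts was not tested. The 3 lower were *Hspa8*, a constitutive Hsp70 chaperone and host of several C/D box snoRNAs (-0.70), *Ccar1* (-1.11) and *Cep55* (-0.77). Of the 10 higher, *Mgat5* (0.81) and *Tmem62* (0.62) had the most counts. Of the 10 nonsense-mediated decay factors, which degrade several of these host RNAs, none was called and the median was 0.03. *Smg1*, the one with the most counts, had a log2 fold change of -0.09.

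**Figure D3:**
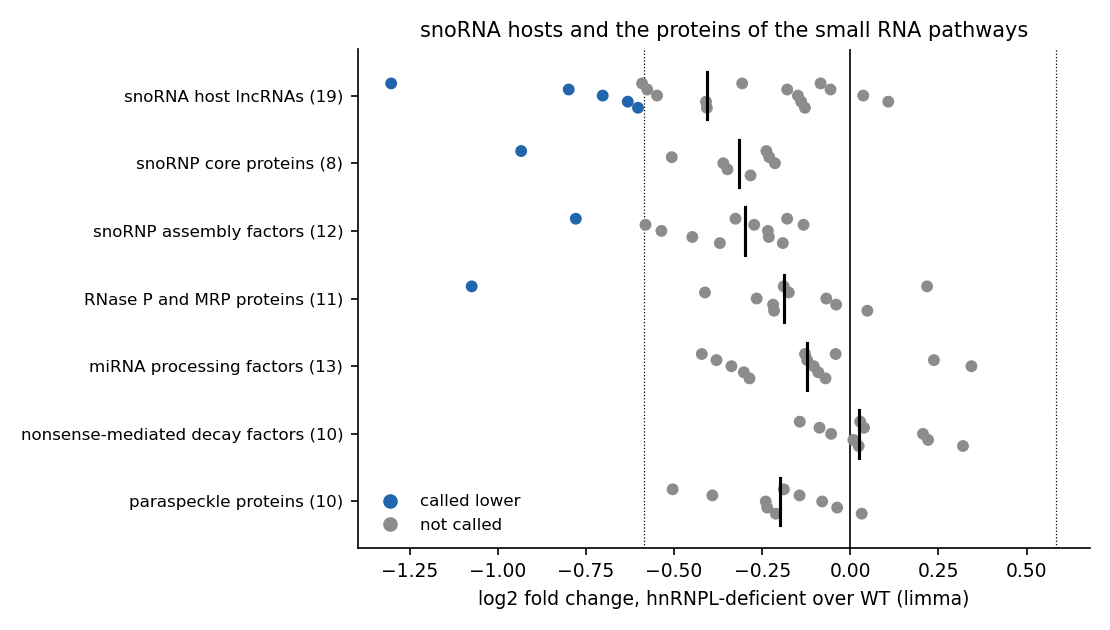
Log2 fold change of hnRNPL-deficient over WT (x axis, 1 point per tested gene) for the snoRNA host lncRNAs and 6 lists of proteins of the small RNA and lncRNA pathways (y axis, number of tested genes in brackets); black bars are medians, blue is called lower, grey not called, and the dotted lines mark 1.5-fold. The medians run from -0.41 for the snoRNA hosts to 0.03 for the nonsense-mediated decay factors, and no gene shown was called higher.

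The miRNA hosts were split. Of 14 listed, 6 were tested, and the median log2 fold change was 0.34. The 6 include *Pvt1*, placed here by its assigned role, although no miRNA is annotated within it on its strand. *Ftx*, which does hold annotated miRNAs, is counted with the X inactivation centre. Among them 1 was called lower and 1 higher (16.7% each, against 4.08% and 7.28% of all tested genes). *Mir17hg* (*ENSMUSG00000089726.2*, chr14:115042879-115046727), whose 6 miRNAs lie inside its annotated exons, had 1072, 1453 and 1426 normalized counts in WT and 735, 775 and 877 in hnRNPL-deficient libraries. All hnRNPL-deficient libraries were below the lowest WT library, and the level fell by 39.6% on the mean (log2 fold change -0.72, standard error 0.151, adjusted p = 0.0204 from limma). *Mir22hg* (chr11:75461539-75466676), the host of miR-22, had 26.7, 48.4 and 61.2 in WT and 97.4, 120.1 and 117 in hnRNPL-deficient libraries, from 23 to 119 reads per library. The groups were apart by more than the range of either (log2 fold change 1.35, standard error 0.330, adjusted p = 0.0349 from limma). Both kept their call without each library in turn, at a log2 fold change of -0.64 or below for *Mir17hg* and of 1.01 or above for *Mir22hg*. *Tlcd2*, a coding gene that overlaps *Mir22hg* on its strand, had a log2 fold change of -0.02.

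*Mir155hg* and *Dleu2* were not called. *Mir155hg* (chr16:84703167-84715245), the host of miR-155, had 1727, 2098 and 2090.0 normalized counts in WT and 1646, 2085 and 3828 in hnRNPL-deficient libraries. Library 3 of the hnRNPL-deficient group stood far above the rest and neither of the other two exceeded the highest WT value (log2 fold change 0.26, standard error 0.272, adjusted p = 0.565 from limma), and leaving it out gave a log2 fold change of -0.08. *Dleu2* (chr14:61602839-61682373), host of miR-15a and miR-16, had 1093, 1395 and 1143 in WT and 1546, 1407 and 1926 in hnRNPL-deficient libraries, where the lowest value just exceeded the highest WT value (log2 fold change 0.42, standard error 0.153, adjusted p = 0.116 from limma). On the opposite strand within *Dleu2*, *Trim13* (log2 fold change 0.84) and *Kcnrg* (1.82) were called higher. *Pvt1*, the lncRNA next to *Myc*, had 457, 639.8 and 704 in WT and 656, 1072 and 1738 in hnRNPL-deficient libraries, overlapping at library 1 (log2 fold change 0.86, adjusted p = 0.131 from limma). It was called without that library (1.21) and by both count tests (edgeR 0.98, DESeq2 0.95), but without hnRNPL-deficient library 3 its log2 fold change was 0.51, under 1.5-fold. This stands beside a log2 fold change of -0.44 for *Myc* (adjusted p = 0.0976 from limma), which passed the adjusted p but not 1.5-fold. *Mir142hg*, host of the blood cell miRNA miR-142, was not called (log2 fold change -0.23, adjusted p = 0.460 from limma). Of 13 miRNA processing factors none was called (median -0.12), with *Ddx5* at -0.13 and *Ran* at -0.42 as those with the most counts. Of 589 tested protein-coding miRNA hosts 34 were called higher (5.77%) and 28 lower (4.75%). These shares are near the 7.28% and 4.08% of all tested genes.

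**Figure D4:**
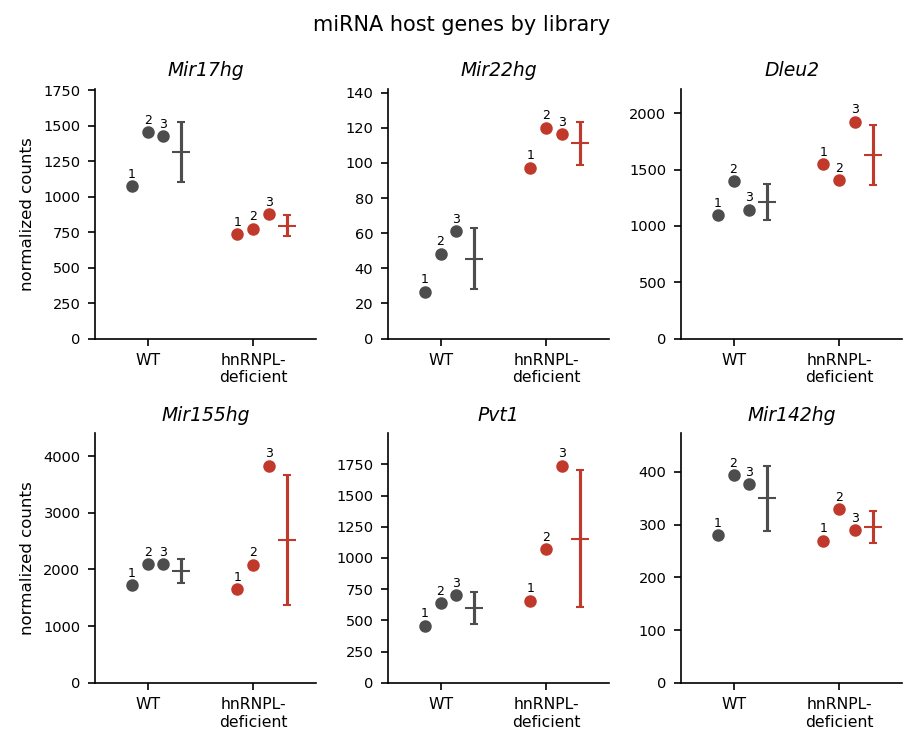
Normalized counts (y axis, each from 0) of the 6 tested miRNA hosts in the 3 WT (grey) and 3 hnRNPL-deficient (red) libraries, numbered by replicate, with the mean and SD of each group beside its points. The groups are apart, downward in *Mir17hg* and upward in *Mir22hg*, and library 3 of the hnRNPL-deficient group sets the spread of *Mir155hg* and *Pvt1*.

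All 4 tested nuclear lncRNAs had a mean log2 value above that of WT, against 8336 of all 17640 tested genes. Of the 4, 1 was called higher (25%, against 7.28% of all tested genes). Of the 1397 other tested lncRNA genes, 886 also had a mean above WT, and 17.3% were called higher. *Malat1* (chr19:5795690-5802672), a retained RNA of nuclear speckles, had by far the highest level per length of the members, 23652 normalized counts per kb of exon against 2567 for *Snhg3*, the next. It had 89934, 176828 and 187316 normalized counts in WT and 133757, 174944 and 228207 in hnRNPL-deficient libraries. WT library 1 was the lowest and hnRNPL-deficient library 3 the highest of the 6, with broad overlap between (log2 fold change 0.28, standard error 0.298, adjusted p = 0.580 from limma), and without WT library 1 the log2 fold change was -0.06. *Neat1*, the RNA that paraspeckles are built on, showed the same 2 libraries at its ends (log2 fold change 0.69, adjusted p = 0.314 from limma), and the 10 paraspeckle proteins held no called gene (median -0.20, with *Hnrnpk* at -0.24). *Tug1* (chr11:3639785-3649673) was steadier, with 7797, 7549 and 7042 in WT and 9358, 8126 and 9314 in hnRNPL-deficient libraries. Its groups did not overlap, but the difference was small (log2 fold change 0.26, standard error 0.0980, adjusted p = 0.132 from limma). *Firre* (chrX:50555744-50635321), an X-linked lncRNA of nuclear organisation, was called higher with 20.9, 49.3 and 52.0 in WT and 83.8, 140.3 and 71.3 in hnRNPL-deficient libraries, from 18 to 139 reads. The highest hnRNPL-deficient value was from the female mouse, and the groups did not overlap (log2 fold change 1.30, standard error 0.415, adjusted p = 0.0818 from limma). The call held only without hnRNPL-deficient library 3. Without WT library 1, 2 or 3 the log2 fold change was 0.89, 1.48 or 1.52, and it stayed above 1 without hnRNPL-deficient library 1 or 2, each with an adjusted p from limma between 0.111 and 0.216.

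Of the imprinted lncRNAs, *Peg13* (chr15:72805600-72810324), which lies in an intron of *Trappc9* and is made from the paternal copy, was called higher. It had 736, 599 and 691 normalized counts in WT and 982, 959 and 1119.8 in hnRNPL-deficient libraries. The lowest hnRNPL-deficient library was above the highest WT library (log2 fold change 0.60, standard error 0.133, adjusted p = 0.0247 from limma), and the fold, just past 1.5, dropped under it without WT library 2 (0.51) or hnRNPL-deficient library 3 (0.53). *Trappc9* on the same strand had a log2 fold change of -0.29. *Kcnq1ot1* (chr7:143203458-143296549), a long unspliced RNA that silences its neighbours on 1 parental copy, had 9322, 11731 and 13175 in WT and 10339, 19889 and 40902 in hnRNPL-deficient libraries. The hnRNPL-deficient values ran from within the WT range to far above it (log2 fold change 0.85, standard error 0.413, adjusted p = 0.225 from limma). The value rests on single libraries: without library 1 of that group *Kcnq1ot1* was called, at 1.34, and without library 3 its log2 fold change was 0.34. *Meg3* and *H19* had at most 2.74 and 1.01 normalized counts. Among 14 genes of the same imprinted clusters 5 were tested and 1 was called higher (20%, against 7.28% of all tested genes). That gene, *Dlk1*, a paternally expressed neighbour of *Meg3*, had 31.3, 45.0 and 22.9 in WT and 155, 98.9 and 95.9 in hnRNPL-deficient libraries (log2 fold change 1.80, adjusted p = 0.0121 from limma). *Ube3a* (-0.09) and *Ago2* (-0.09), those with the most counts, were not called.

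The 2 lncRNAs of the X inactivation centre were not called. *Ftx* (chrX:103560907-103623790), which also hosts miRNAs, had 728, 958 and 1238 normalized counts in WT and 1063, 1447 and 1783 in hnRNPL-deficient libraries, with overlap at hnRNPL-deficient library 1 (log2 fold change 0.56, standard error 0.235, adjusted p = 0.168 from limma). Without that library *Ftx* was called, at 0.75, and without WT library 1 its log2 fold change was 0.36. *Jpx* (chrX:103493556-103565696), an activator of *Xist*, had 415, 604 and 773 in WT and 503, 718 and 661 in hnRNPL-deficient libraries, where the groups covered the same range (log2 fold change 0.10, standard error 0.238, adjusted p = 0.820 from limma). In each group the female library had the highest *Jpx* value. The tested neighbours *Xist*, *Tsix*, *Rlim* and *Chic1* held no called gene, and *Xist* followed the sex of the mice. *Rpph1* (chr14:50807449-50807767), the RNA subunit of RNase P, which matures tRNAs, had 586, 519.6 and 698 in WT and 559, 485 and 630.5 in hnRNPL-deficient libraries, and these overlapped (log2 fold change -0.11, standard error 0.164, adjusted p = 0.716 from limma). Of 11 RNase P and MRP proteins 1, *Rpp25*, was called lower (9.09%, against 4.08% of all tested genes). *Rpp25* had 126, 90.8 and 75.7 in WT and 53.2, 33.3 and 50.7 in hnRNPL-deficient libraries (log2 fold change -1.07, adjusted p = 0.0556 from limma). With each of the 6 libraries left out in turn, it kept its call only 2 times. *Pop1* (-0.41) and *Pop4* (-0.07), those with the most counts, were not called.

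**Figure D5:**
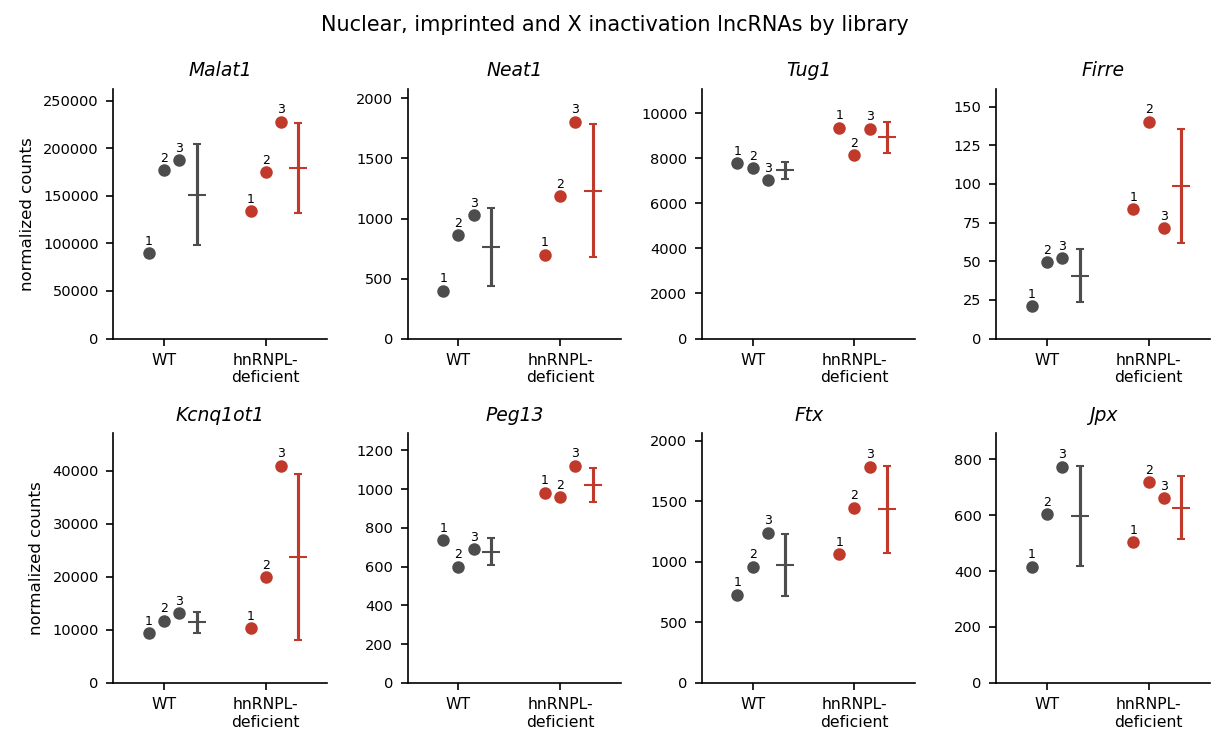
Normalized counts (y axis, each from 0) of 4 nuclear lncRNAs, 2 imprinted lncRNAs and 2 lncRNAs of the X inactivation centre in the 3 WT (grey) and 3 hnRNPL-deficient (red) libraries, numbered by replicate, with the mean and SD of each group beside its points. *Peg13*, *Firre* and *Tug1* have groups that do not overlap, and *Malat1*, *Neat1*, *Kcnq1ot1* and *Ftx* have their lowest value in WT library 1 and their highest in hnRNPL-deficient library 3.

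The 14 untested members had few or no counted reads. *Meg3*, *H19*, *Snhg11*, *Mir100hg*, *Mir670hg*, *Mir99ahg* and *Mir133a-1hg* had between 0 and 5 reads in any library. *Miat*, *Mir9-3hg*, *Mir124a-1hg*, *Mir124-2hg* and *Mir205hg* had none, which allows up to 3 reads per library as counting error. Both identifiers of *Rmrp*, the RNA of RNase MRP, were also at 0, but they lie over each other on the same strand, so a read there belongs to both, and the 0 says nothing of its level.

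Few genes beside the members were called, at shares near or under those of all tested genes. Of 62 distinct tested coding neighbours, the nearest on each side, 4 were called higher (6.45%, against 7.28% of all tested genes) and 1 lower (1.61%, against 4.08%), with a median log2 fold change of -0.07, and 19 lay within 20 kb. *Myo1g*, next to *Snhg15*, fell (log2 fold change -1.37) while *Snhg15* had -0.15. *Zfp949*, beside *Snhg5*, was called higher (1.30). *Syncrip* on the other side passed the adjusted p but not 1.5-fold (log2 fold change -0.43, adjusted p = 0.0367 from limma). *Enox2*, a distant neighbour of *Firre*, was called higher (0.79), *Khdrbs3* near *Peg13* likewise (1.84), and so was *Paip2* near the second identifier of *Snhg4* (0.62). *Mcmdc2*, on the strand opposite to *Snhg6*, was called higher (1.68) from WT values of 53.4, 60.5 and 111 to 118, 255 and 399.

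hnRNPL is known to bind CA-rich RNA, so the letters ACACACA and ACACAAA were counted, overlaps included, on the transcript strand of the longest annotated transcript. Of the 34 tested members 10 held at least 1 match (29.4%), among them 5 of the 19 snoRNA hosts (26.3%), against 37.7% of the other tested lncRNA genes and 40.6% of all tested genes. Pooled over length, the snoRNA hosts had 0.24 matches per kb and the other lncRNA genes 0.77. *Kcnq1ot1* had the most, 117 over 93092 bases, and *Neat1* had 23. None of the called snoRNA hosts had a match, nor did *Mir17hg*, *Mir22hg* or *Firre*, and *Peg13* had 1. For some hosts this transcript covers nearly the whole gene, 2728 of 2969 bases for *Snhg1* and 776 of 853 for *Snhg8*. The rates per kb therefore mix transcripts with and without intron sequence. Introns outside the longest transcript were not searched, and these letters say nothing of where the protein binds.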

How the data were processed

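RNA-seq libraries of 6 mice, 3 WT and 3 hnRNPL-deficient, were used as deposited by the authors, in a table of normalized counts per gene, a signal made by dividing gene counts by DESeq2 size factors. By the study's methods and the submitters' processing notes, poly(A)-selected libraries were trimmed with fastp 0.23.1, aligned with STAR 2.7.9a to mm10, counted strand-specifically with featureCounts on a GENCODE annotation and scaled with DESeq2 1.38.2. The authors' own fold changes and p-values in the table were not used. Values of all 6 libraries came out as whole reads (100% within 0.01), which the count tests used.

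Genes with a mean of at least 10 were tested with limma 3.58.1 (R 4.3.3, trend, two-sided) on log2(normalized count + 1), so folds of low genes are understated. Benjamini-Hochberg adjustment ran over all 17640 genes, and a gene was called at an adjusted p under 0.1 and at least 1.5-fold, the study's thresholds. An exact permutation test of 3 against 3 cannot go below p = 0.1. Each library is 1 mouse, and the libraries held 40395186 to 75180749 reads. No interval was set on the levels, and floors cover counting error only.

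Gene positions came from a GENCODE annotation on GRCm38 that is not the authors' release; 17615 of the tested genes and all 48 members matched by identifier. Sequences came from RefSeq on GRCm38. The members, lists and tests were chosen with earlier results of these data known. Values in every library are given for each called member, the 5 tested members with the highest mean and the 2 with the highest mean of each role, and in each list the called genes and the 2 with the highest mean are named. A few genes of these lists are not reported here. Library values of *Zfas1* and *Pvt1*, and the marker, neighbouring and overlapping genes, were chosen after their values were seen.

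Alternatives were other pseudocounts, filters, scalings and thresholds, no trend, robust variances, a replicate block, an *Xist* covariate, edgeR 4.0.16, DESeq2 1.42.0 and each library left out. The 4 libraries of male mice alone were an alternative chosen after seeing the data. The fitting script was tested on simulated data.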

Additional observations from a re-analysis of the deposited data

How the results depend on the processing

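The 9 called members kept their direction under each of the 21 alternatives in which they were tested (*Snhg9* was not tested at a filter mean of 50), and 4 of them (*Snhg5*, *Snhg8*, *Mir17hg* and *Mir22hg*) kept their call under every alternative other than the stricter threshold and the male libraries alone. Of 710 values of members under alternatives, 629 kept direction and call, 41 lost the call, 17 gained it and 23 changed sign, the last all in members that were not called. Leaving out 1 library at a time gave 830 to 1111 genes called higher and 478 to 696 lower, 1 to 5 members higher and 4 to 7 lower, and a median log2 fold change of the snoRNA hosts from -0.54 to -0.31. The lowest gene counts came without WT library 3. At an adjusted p under 0.05 and 2-fold, 610 genes were higher and 216 lower, and 1 member was higher and 0 lower (limma gave 6 lower at the main threshold). With the 4 libraries of male mice, 445 genes were higher and 310 lower, and 0 members were higher and 1 lower. Quantile normalization left 1 member higher. *Snhg3* and *Snhg4* lost their call when libraries were scaled to equal totals. The cause of these shifts was not tested, beyond fewer samples or a stricter threshold where the alternative itself is that.

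With the replicate number as a block, 1755 genes were called higher and 1018 lower, and 6 members were higher (with *Kcnq1ot1*, *Neat1* and *Pvt1* added) and 7 lower (with *Snhg16* added). Deviations of same-numbered libraries had correlations of 0.43, 0.32 and 0.07, and those of differently numbered ones ran from -0.46 to 0.31. The labels do not say whether the numbers pair the mice, so the block stays an alternative.

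The changes of sign were in members close to WT. Leaving out 1 library at a time gave log2 fold changes of -0.20 to 0.00776 for *Rpph1*, -0.14 to 0.31 for *Jpx*, -0.084 to 0.52 for *Mir155hg*, -0.0583 to 0.47 for *Malat1*, -0.22 to 0.00216 for *Snhg1*, -0.23 to 0.25 for *Snhg10*, -0.50 to 0.25 for *Snhg14*, -0.55 to 0.30 for *Snhg18* and -0.34 to 0.0456 for the second *Snhg4* identifier. Quantile normalization turned *Snhg1* (0.0021), *Snhg20* (-0.00083) and *Snhg10* (-0.11), edgeR turned *Snhg14* (0.0403), and DESeq2 turned *Snhg14* (0.0159) and *Snhg10* (-0.00826). The male libraries turned *Rpph1* (0.11), *Snhg1* (0.0513), *Snhg14* (0.19) and *Snhg18* (0.13). Depth limits *Snhg9*, *Snhg14*, *Firre* and *Mir22hg*, which rest on few reads.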
